A study of Arabidopsis thaliana with 37 samples.

Results

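The genes AT2G44120 and AT2G44140, which lie next to each other on chromosome 2 of Arabidopsis thaliana, were followed together with the ATG8 genes across every group of a microarray study of microRNA pathway mutants. AT2G44120 encodes a protein of the ribosomal L7 family (RPL7C) and AT2G44140 encodes an ATG4 protease (ATG4A). The set held the probe sets annotated to this pair and every probe set whose gene symbol in the platform annotation begins with ATG8, which were those of ATG8B, ATG8C, ATG8D, ATG8E and ATG8F. That makes 7 of the 8247 probe sets on the array, and all 7 were bright enough to be tested, as were 6048 probe sets in all. The pair and ATG8E were chosen by their low signals in ago1-10 against Ler at 9 days and against the first Ler set at 21 days. Those values are therefore given as a description with no test, and the other comparisons carry the tests.

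Total RNA of whole seedlings was hybridised to 37 one-colour arrays, 1 sample each. The mutant seedlings carried an allele of the ARGONAUTE1 gene, ago1-10 (4 arrays at 9 days, 3 at 21 days and 3 at 35 days), or ago1-11 (4 at 9 days, 3 at 21 days), or the allele dcl1-9 of DICER-LIKE1, called caf in the array names (4 at 21 days). The wild types were Landsberg erecta (Ler), with 3 arrays at 9 days, 3 in a first set at 21 days, Ler (1), and 4 in a second set at 21 days, Ler (2), and Columbia (Col), with 3 arrays at 9 days and 3 at 21 days. The labels name no treatment and no wild-type parent of the mutants. Ler was used as their wild type, and Ler (2) for dcl1-9 because the array names of these sets are built alike. The ago1-10 arrays carry strain codes of 2 series, MR44 (3 arrays at 9 days and all 3 at 21 days) and MR49 (1 array at 9 days and all 3 at 35 days), so strain code and age cannot be told apart between 21 and 35 days, nor can the allele and anything else these lines carry. The ago1-11 arrays at 9 days carry 4 codes, MR51, MR53, MR54 and MR57, 1 array each, and all 3 at 21 days carry MR57. Age and the number after the code in the array name disagree for 2 ago1-10 arrays: that number is 1 for all coded arrays at 9 days and 2 for those at 21 days, but 1 ago1-10 array labelled 21 days has a 3 and 1 labelled 35 days has a 2. The labelled ages were used. Of the Ler (2) arrays, the first is named Ler and the other 3 WT.

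AGO1 is the plant protein that holds microRNAs and cuts their target RNAs, and DCL1 is the enzyme that makes most microRNAs. Autophagy is the route by which plant cells enclose cytoplasm in a double membrane and deliver it to the vacuole, and it is known to clear AGO1 protein itself under some conditions. ATG8 is a small ubiquitin-like protein that is joined to a membrane lipid, phosphatidylethanolamine, on the growing autophagosome. ATG4 proteases trim new ATG8 so that it can be joined, and later cut it off the lipid for reuse. The L7 protein belongs to the large subunit of the cytosolic ribosome, and Arabidopsis makes it from several genes.

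Signals below are array intensities after each array was brought to a common median, on a linear scale, and differences are on the log2 scale after adding 1.1. A signal under 12, the 40th percentile of all values, is near background. Before scaling, array medians lay between 11.3 and 30.2. The summed signal of the leaf marker list (3 of 6 genes measured, none at 0) was 7431 to 9625 on ago1-10 arrays against 14670 to 19682 on Ler arrays at 9 days, and 5018 to 7371 on ago1-10 arrays against 13209 to 13980 on Ler (1) arrays at 21 days. It overlapped in the comparison of ago1-10 at 35 days with Ler (2), at 5498 to 13050 against 9005 to 10681. The flower and pollen list (3 of 8 measured) summed to between 103 and 189 on every array, and no gene of the root or seed lists was measured. The part of tissue makeup in any value below was not tested, and in such bulk samples fewer cells of a type cannot be told apart from less RNA per cell.

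AT2G44120, the L7 gene, was near background on every ago1-10 array and bright on all others. At 9 days its signal was 3.17, 9.46, 1.95 and 6.46 on the ago1-10 arrays, against 714, 535 and 529 on the Ler arrays. At 21 days it was 4.75, 2.56 and 8.19 on the ago1-10 arrays, against 497, 370 and 431 on the Ler (1) arrays. The ago1-10 values lay far below the Ler values at both ages with no overlap. The log2 difference was -6.70 (95% interval -7.38 to -6.01) at 9 days and -6.21 (-6.94 to -5.47) at 21 days. The ago1-10 values are near background and the sizes depend on the constant added, so a bound was also taken with every value under 12 set to 12: Ler was at least 48.9-fold higher at 9 days and Ler (1) at least 35.8-fold higher at 21 days.

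AT2G44140, the ATG4A gene, followed the same pattern from a lower level. At 9 days its signal was 2.22, 0.927, 8.32 and 1.33 on the ago1-10 arrays, against 54.1, 36.7 and 46.4 on the Ler arrays. At 21 days it was 5.25, 7.16 and 1.29 on the ago1-10 arrays, against 55.0, 34.7 and 51.2 on the Ler (1) arrays. Again the groups did not overlap, and the ago1-10 arrays stayed under the background level. The log2 difference was -3.72 (-4.47 to -2.97) at 9 days and -3.24 (-4.04 to -2.44) at 21 days. With values under 12 set to 12, Ler was at least 3.76-fold higher at 9 days and Ler (1) at least 3.84-fold higher at 21 days.

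The arrays of ago1-10 at 35 days, which the choice of members did not use, gave a test of the same genotype. There AT2G44120 read 1.65, 5.98 and 1.59, and the 21-day Ler (2) arrays read 546, 533, 549 and 559. AT2G44140 read 9.55, 3.34 and 3.85 at 35 days in ago1-10, against 46.2, 46.1, 51.9 and 41.2 in Ler (2). Both genes were thus near background on all 3 older arrays, with no overlap with the wild type. Of the 7 members 2 were called, both lower, in a comparison in which 16.6% of all probe sets tested were called and 10.7% were called lower. AT2G44120 was lower by a log2 difference of -7.20 (adjusted p = 1.8e-17, limma with Benjamini-Hochberg adjustment over all probe sets tested) and AT2G44140 by -2.94 (adjusted p = 9.2e-07). As a bound, Ler (2) was at least 45.6-fold higher for AT2G44120 and at least 3.85-fold higher for AT2G44140. Age and genotype differ together in this comparison and cannot be told apart. With the 2 ago1-10 arrays grouped by the number in their names, an alternative added after the data were seen, both genes were again called lower, but the 35-day group then holds an array that chose the members.

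**Figure D1:**
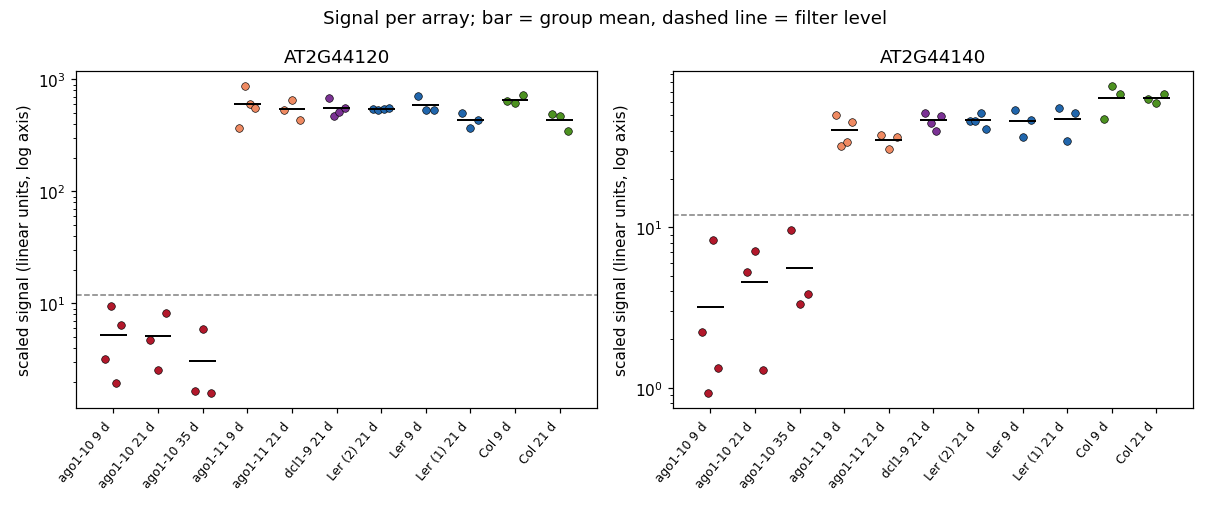
Scaled signal of AT2G44120 (left) and AT2G44140 (right) on each of the 37 arrays, by genotype and age in days (log axis). Points are arrays, bars are group means, and the dashed line is the level of 12. All 10 ago1-10 arrays lie below the line for both genes and all 27 other arrays lie above it.

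The low signal was shared by all 10 ago1-10 arrays. AT2G44120 lay between 1.59 and 9.46 on them, with a median of 3.96, against 347 to 871 on the 27 other arrays, with a median of 537. AT2G44140 lay between 0.927 and 9.55 on the ago1-10 arrays, with a median of 3.59, against 30.6 to 75.7 on the others, with a median of 46.4. The values as deposited, before scaling, were separated as well, with at most 10.8 on ago1-10 arrays against at least 255 elsewhere for AT2G44120, and at most 12.8 against at least 25.2 for AT2G44140. Both strain codes showed it: AT2G44120 read 1.95 to 9.46 under MR44 and 1.59 to 6.46 under MR49, and AT2G44140 read 0.927 to 8.32 under MR44 and 1.33 to 9.55 under MR49.

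The other AGO1 allele did not show this. In ago1-11 at 9 days AT2G44120 read 369, 871, 606 and 556, which took in the whole range of the Ler arrays given above. In ago1-11 at 21 days it read 537, 661 and 438, against 497, 370 and 431 on the Ler (1) arrays. The log2 difference of AT2G44120 was -0.03 (-0.72 to 0.65) at 9 days and 0.32 (-0.41 to 1.06) at 21 days. AT2G44140 read 49.8, 31.9, 34.2 and 45.3 in ago1-11 at 9 days, and 37.6, 30.6 and 36.4 at 21 days. These values overlapped those of Ler and Ler (1), with log2 differences of -0.19 (-0.93 to 0.56) at 9 days and -0.40 (-1.20 to 0.40) at 21 days. At 21 days the overlap rests on the Ler (1) array at 34.7, without which the difference was -0.60. The 21-day ago1-11 arrays all lay below every Ler (2) array (41.2 to 51.9). None of the 7 members was called in ago1-11 at 9 days, where 4.28% of probe sets tested were called and 1141 had an unadjusted p under 0.05, and none at 21 days, where 2.40% were called and 989 had such a p.

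The alleles were also set against each other on arrays the choice did not use, ago1-10 at 35 days against ago1-11 at 21 days. AT2G44120 averaged 3.07 ± 2.52 in ago1-10 and 545 ± 112 in ago1-11 (SD, n = 3 each), and AT2G44140 averaged 5.58 ± 3.45 in ago1-10 and 34.8 ± 3.75 in ago1-11. Of the 7 members these 2 were called, both lower in ago1-10, against 3.31% of all probe sets tested called and 2.46% called lower. The log2 difference was -7.17 for AT2G44120 (adjusted p = 1.6e-16) and -2.54 for AT2G44140 (adjusted p = 0.00011). With only these 2 groups in the model AT2G44140 was no longer called (adjusted p = 0.066). Age and allele differ together here and cannot be told apart.

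In dcl1-9 seedlings both genes stood within or around the wild-type range. AT2G44120 read 682, 473, 515 and 558 in dcl1-9, on both sides of the narrow Ler (2) range of 533 to 559. AT2G44140 read 51.8, 44.9, 39.8 and 49.5 in dcl1-9, against 41.2 to 51.9 in Ler (2). The groups overlapped for both genes, with log2 differences of 0.01 (-0.62 to 0.65) for AT2G44120 and 0.00 (-0.69 to 0.70) for AT2G44140. None of the 7 members was called, where 0.81% of probe sets tested were called and 581 had an unadjusted p under 0.05. The difference between the dcl1-9 and the ago1-11 effects at 21 days was called for none of the 7 either, where 0.198% were called and 479 had an unadjusted p under 0.05.

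Outside ago1-10 the group means of AT2G44120 lay between 433 and 662, and those of AT2G44140 between 34.8 and 63.6. From low to high, AT2G44120 averaged 433 ± 63.5 in Ler (1), 437 ± 78.7 in Col at 21 days, 545 ± 112 in ago1-11 at 21 days, 547 ± 10.7 in Ler (2), 557 ± 90.5 in dcl1-9, 593 ± 105 in Ler at 9 days, 601 ± 207 in ago1-11 at 9 days and 662 ± 62.9 in Col at 9 days. Every neighbour in that order overlapped the next, and the gap that did not overlap was the one between Ler (1) and ago1-10 at 9 days (5.26 ± 3.39). AT2G44140 averaged 34.8 ± 3.75 in ago1-11 at 21 days, 40.3 ± 8.61 in ago1-11 at 9 days, between 45.7 and 47.0 in the Ler groups and dcl1-9, and 63.6 in Col at both ages. Its neighbours in that order overlapped apart from 2 steps, that from ago1-10 at 35 days up to ago1-11 at 21 days and that from Ler (1) (34.7 to 55.0) up to Col at 21 days (59.9 to 67.8). The difference of Ler (1) from Col at 21 days was -0.45 (-1.26 to 0.35) and was not called (adjusted p = 0.60).

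Among all 8247 probe sets, 3508 were above 12 on every one of the 27 arrays without ago1-10. Of these, 3 were under 12 on all 10 ago1-10 arrays: the pair and a probe set with no gene in the platform annotation, which reached at most 4.52 on ago1-10 arrays against at least 18.7 on the others. The opposite pattern, above 12 on all ago1-10 arrays and under it on all others, was met by 0 probe sets. Without the cut at 12, 8 probe sets had all ago1-10 arrays below all others, and 3 had all ago1-10 arrays above all others. The count with the cut at 12, made for the 7 ago1-11, 4 dcl1-9 and 10 Ler arrays, gave 0 in both directions. For the 6 Col arrays it gave 3 under and 13 above. Each genotype was set against all remaining arrays, mutant and wild type. A pattern shared with another genotype could therefore not be counted, so the counts do not compare the genotypes on equal terms. Since the pair was chosen for its low ago1-10 signal, its place in the ago1-10 counts is a description.

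**Figure D2:**
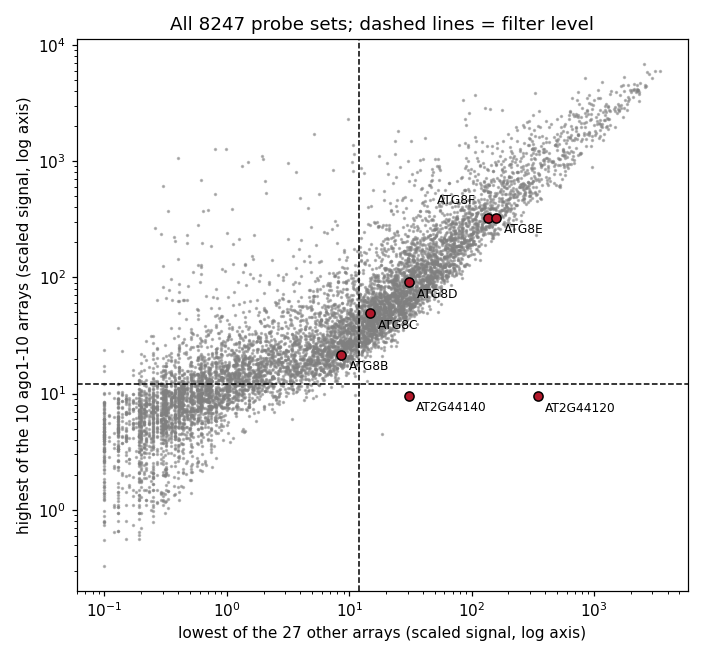
Highest signal on the 10 ago1-10 arrays against the lowest on the 27 other arrays for all 8247 probe sets (both axes logarithmic, scaled signal). Red points are the 7 members and dashed lines mark the level of 12; the 74 probe sets whose lowest value is under 0.1 are drawn at 0.1. AT2G44120 and AT2G44140 lie with 1 further probe set in the lower right, and the ATG8 genes lie within the main band.

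The tested genes around the pair differed between ago1-10 and Ler by -1.36 to 0.83 on the log2 scale. Counting 15 annotated genes to each side of AT2G44120 in gene order, 12 besides AT2G44140 have a probe set and 8 of these were tested. AT2G44130, which follows AT2G44140 in gene order, has no probe set here. The nearest tested gene on one side, AT2G44090, 4 places away, differed by 0.04 (-0.53 to 0.61) at 9 days, by -0.35 (-0.97 to 0.26) at 21 days and by -0.11 (-0.68 to 0.46) at 35 days. The nearest on the other side, AT2G44200, 11 places away, differed by -0.11 (-0.71 to 0.50), 0.27 (-0.38 to 0.93) and 0.26 (-0.35 to 0.87) in the same comparisons. The 8 neighbours had a median difference of 0.11 at 9 days, 0.06 at 21 days and -0.03 at 35 days, beside medians over all probe sets tested of -0.01, 0.01 and -0.05. At 21 days 2 of the 8 were called, AT2G44060 higher by 0.72 and AT2G44230 lower by 1.36 on the log2 scale, where 20.6% of probe sets tested were called. By its estimate AT2G44230 differed less than AT2G44140, whose difference at that age was at least 3.84-fold. The interval of AT2G44230 was -2.01 to -0.71, and these genes were not tested against each other. None was called at 9 days, where 15.9% were and 1705 had an unadjusted p under 0.05, and none at 35 days, where 1737 had such a p.

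**Figure D3:**
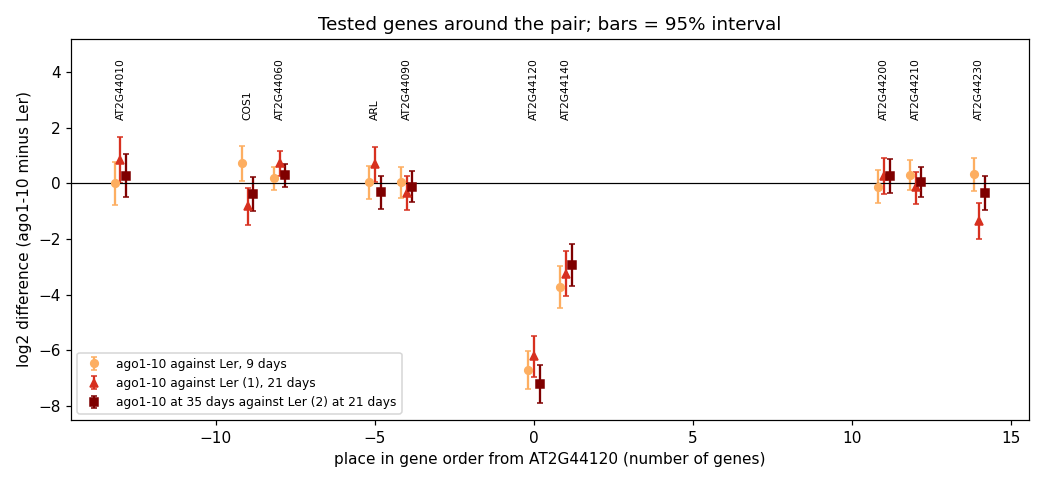
Log2 difference of ago1-10 from Ler for AT2G44120, AT2G44140 and the 8 tested neighbours, by place in gene order from AT2G44120, at 9, 21 and 35 days (35-day arrays against 21-day Ler (2)). Symbols are model estimates and bars their 95% intervals. The pair lies between -7.20 and -2.94, and the 8 neighbours lie between -1.36 and 0.83.

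The other measured gene of the L7 family, RPL7B (AT2G01250), was bright in every group. Its signal lay between 1135 and 2451 on the ago1-10 arrays, with a median of 1662, against 687 to 1896 on the others, with a median of 1354. The ranges overlapped, and RPL7B differed by 0.17 (-0.31 to 0.65) between ago1-10 and Ler at 9 days and by 0.14 (-0.34 to 0.62) between ago1-10 at 35 days and Ler (2). Of the 4 L7 genes, 2 have a probe set.

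ATG8E, one of the brighter ATG8 genes on these arrays, was low but well above background in ago1-10 at 9 days. Its signal was 169, 146, 80.5 and 133 on the 9-day ago1-10 arrays, against 572, 543 and 662 on the Ler arrays. It was 327, 201 and 143 on the 21-day ago1-10 arrays, against 432, 159 and 349 on the Ler (1) arrays. The 9-day groups were far apart, while the 21-day groups overlapped widely. The log2 difference was -2.20 (-2.92 to -1.49) at 9 days and -0.45 (-1.21 to 0.32) at 21 days, and whether it changed between the ages was not tested, since both values chose the gene. The 21-day value depends on single Ler (1) arrays: without the array at 159 it was -0.88, and without the array at 432 it was -0.16. The name of its probe set ends in _s_at, the form the maker uses for probes that can match several similar transcripts, so its signal may hold more than one ATG8 transcript.

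In the comparisons that allowed a test, ATG8E was not called. It read 268, 171 and 241 in ago1-10 at 35 days, against 576, 354, 428 and 324 in Ler (2), and 324, 286, 264 and 363 in ago1-11 at 9 days. The 35-day ago1-10 arrays lay below every Ler (2) array, and the 9-day ago1-11 arrays lay below every Ler array. Even so, the log2 difference was -0.88 (-1.59 to -0.16; adjusted p = 0.085) for ago1-10 at 35 days and -0.94 (-1.66 to -0.23; adjusted p = 0.12) for ago1-11 at 9 days. With ages taken from the array names ATG8E was called at 35 days against Ler (2) (-1.18, adjusted p = 0.016), in a group that then holds 1 array used in choosing the gene. The difference was 0.11 (-0.65 to 0.88) for ago1-11 at 21 days, where the arrays read 520, 282 and 207, and -0.16 (-0.82 to 0.50) for dcl1-9, where they read 397, 417, 357 and 307. Both of these overlapped their wild type.

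In the wild types ATG8E was high at 9 days and variable at 21 days. The Ler (1) arrays at 21 days all lay below the Ler arrays at 9 days, with a log2 difference of -1.03 (-1.80 to -0.27; adjusted p = 0.093), where 6.68% of probe sets tested were called. Without the Ler (1) array at 159 this difference was -0.60, and without the Ler (1) array at 432 it was -1.32. Col read 810, 332 and 227 at 21 days, against 422, 639 and 529 at 9 days, and differed by -0.40 (-1.17 to 0.36). From low to high, ATG8E averaged 132 ± 37.3 in ago1-10 at 9 days, 223 ± 94.1 in ago1-10 at 21 days, 227 ± 50.1 in ago1-10 at 35 days, 309 ± 43.8 in ago1-11 at 9 days, 313 ± 140 in Ler (1), 336 ± 163 in ago1-11 at 21 days, 370 ± 48.7 in dcl1-9, 421 ± 113 in Ler (2), 457 ± 311 in Col at 21 days, 530 ± 109 in Col at 9 days and 593 ± 62.0 in Ler at 9 days. Every group in this order overlapped its neighbour. The 3 lowest means were those of ago1-10.

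ATG8F had a low signal in ago1-10 at 9 days and a wild-type one later. It read 108, 90.0, 96.0 and 124 on the 9-day ago1-10 arrays, against 201, 210 and 251 on the Ler arrays. It read 204, 168 and 326 on the 21-day ago1-10 arrays, against 283, 154 and 209 on the Ler (1) arrays, and 154, 291 and 238 on the 35-day ago1-10 arrays. All 4 of the 9-day ago1-10 arrays lay below every other array of the study, of which the lowest read 136. The difference was -1.08 (-1.75 to -0.40) at 9 days, 0.10 (-0.62 to 0.82) at 21 days and, against Ler (2), -0.22 (-0.90 to 0.45) at 35 days. In ago1-11 at 9 days it read 145, 141, 149 and 334, so that 3 arrays lay below all Ler arrays and 1, the array of strain code MR57, above them, with a difference of -0.30 (-0.98 to 0.38).

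ATG8C stood at a moderate level and showed a similar but smaller difference at 9 days. It read 33.9, 26.0, 21.2 and 20.9 on the 9-day ago1-10 arrays, against 32.2, 47.3 and 50.2 on the Ler arrays. These overlapped by 1 array on each side, with a log2 difference of -0.74 (-1.42 to -0.05). At 21 days ATG8C differed by -0.13 (-0.86 to 0.60) and at 35 days by -0.53 (-1.21 to 0.16).

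ATG8D went the other way at 9 days. It read 90.3, 60.0, 51.1 and 58.3 on the 9-day ago1-10 arrays, against 33.9, 49.1 and 45.4 on the Ler arrays. The ago1-10 arrays all lay above the Ler arrays, with a difference of 0.57 (-0.03 to 1.18), and with Col as the wild type the difference was 0.21. At 21 days it differed by 0.33 (-0.32 to 0.97) and at 35 days by 0.17 (-0.43 to 0.78).

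ATG8B lay close to background, above 12 on 26 of the 37 arrays. It read 16.6, 21.6, 11.3 and 5.76 on the 9-day ago1-10 arrays, against 13.5, 10.6 and 11.7 on the Ler arrays, a difference of 0.06 (-0.57 to 0.69). With Col in place of Ler the difference was -0.83, since the 9-day Col arrays read 18.1, 27.6 and 24.3. Ler lay below Col on every 9-day array, with a difference of -0.89 (-1.56 to -0.22; adjusted p = 0.083), where 10.5% of probe sets tested were called. ATG8B passed the threshold when 16 was added before the log (adjusted p = 0.05 after rounding up), and in ago1-11 against Col at 9 days (-1.06, adjusted p = 0.02).

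ATG8A is listed under an older symbol, APG8A, in the platform annotation and so is no member, but it completes the ATG8 genes on the array, 6 of the 9 in the genome. It read 128, 108 and 116 on the 21-day ago1-10 arrays, against at most 88.7 on the 3 Ler (1) arrays. All the ago1-10 arrays were above those of Ler (1), with a difference of 0.84 (0.14 to 1.55), but they lay within the range of the Ler (2) arrays of the same age (88.4 to 144). The difference was -0.12 (-0.78 to 0.54) at 9 days and, against Ler (2), -0.51 (-1.17 to 0.15) at 35 days. ATG8G, ATG8H and ATG8I have no probe set here.

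**Figure D4:**
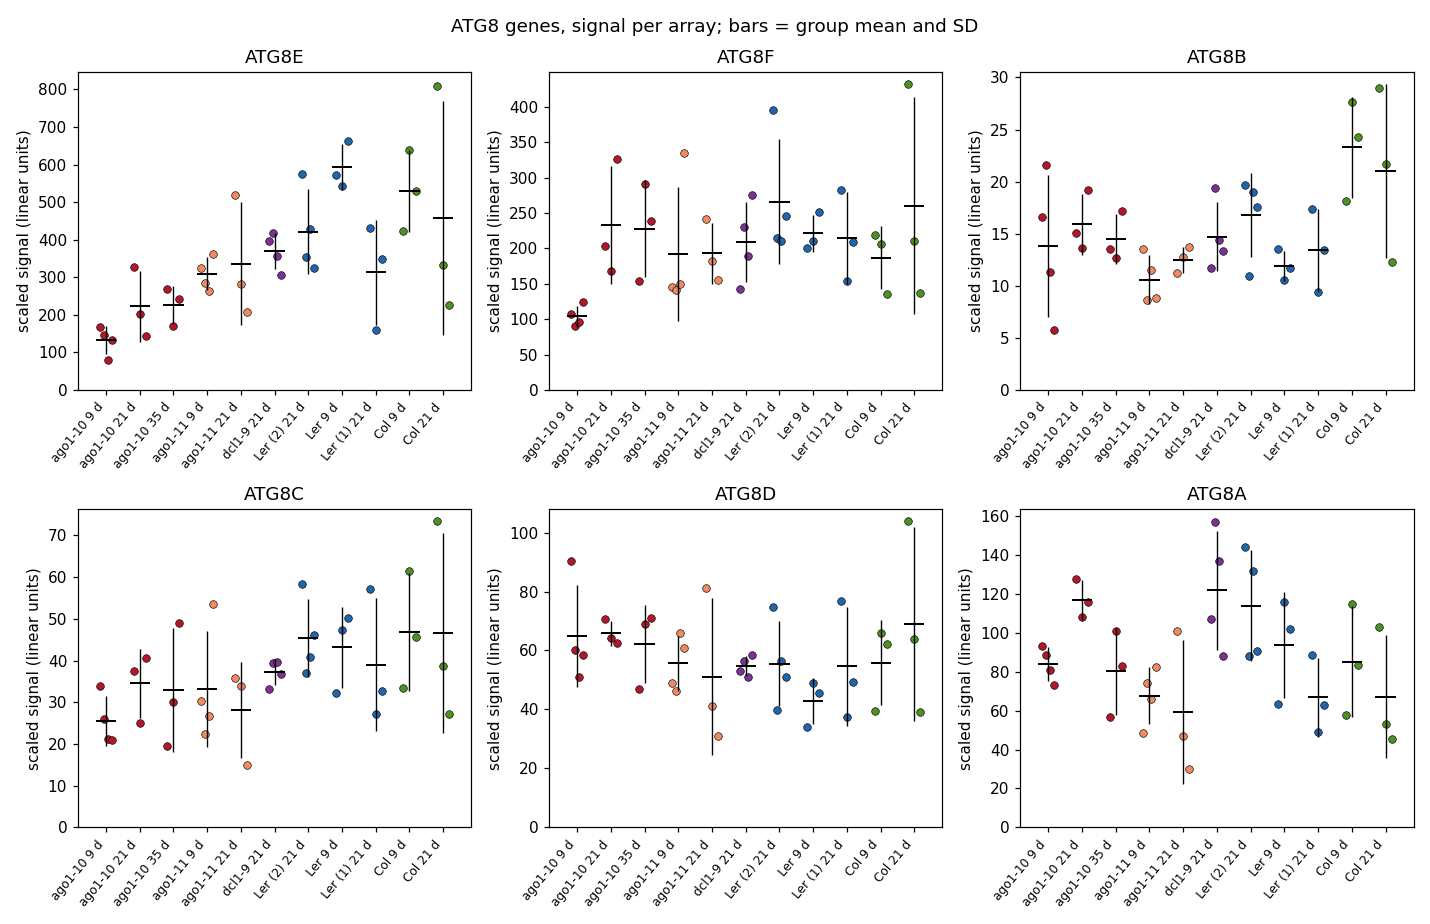
Scaled signal of 6 ATG8 genes on each array, by genotype and age in days (linear axes, 1 scale per gene). Points are arrays and bars show the group mean with its SD. ATG8E and ATG8F are low in ago1-10 at 9 days (means of 132 and 104), ATG8D is not (64.9 against 42.8 in Ler), and the 21-day wild-type groups spread widely.

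No ATG8 member was called in any comparison tested with the chosen processing and wild types and with ages as labelled. Under other choices ATG8B was called, as given above. In ago1-11 against Ler at 9 days the 5 ATG8 members ran from -0.94 to 0.37 with a median of -0.30, beside -0.05 over all probe sets tested. In ago1-11 against Ler (1) at 21 days they ran from -0.48 to 0.11 with a median of -0.14, beside -0.02. In dcl1-9 they ran from -0.34 to 0.01 with a median of -0.17, beside -0.03. In ago1-10 at 35 days against Ler (2) they ran from -0.88 to 0.17 with a median of -0.22, beside -0.05.

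Between the wild types and between ages none of the 7 members was called with the chosen processing. In ago1-11 the ages also differ in strain code, since 1 of the 4 arrays at 9 days carries the code of the 21-day arrays. The share of probe sets tested that was called was 6.80% for Ler (1) against Col at 21 days, 1.85% for Ler (2) against Ler (1), 3.11% for Col at 21 against 9 days and 2.60% for ago1-11 at 21 against 9 days, and 1103, 888, 1014 and 858 had an unadjusted p under 0.05. For Ler against Col at 9 days 1433 had such a p, and for Ler (1) at 21 days against Ler at 9 days 1282. AT2G44120 read lower on every Ler (1) and Col array at 21 days than on the 9-day arrays of the same wild type, with a difference of -0.45 (-1.18 to 0.28) in Ler and -0.61 (-1.34 to 0.12) in Col, neither of them called. The second Ler set at 21 days did not show this, since its range of 533 to 559 lay within that of Ler at 9 days (529 to 714).

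**Figure D5:**
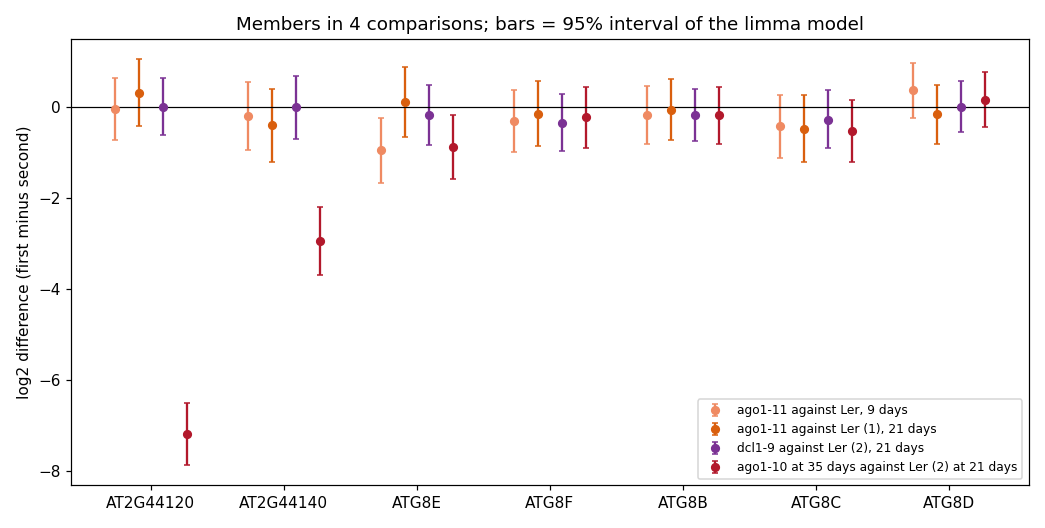
Log2 difference of each member in 4 comparisons tested: ago1-11 against Ler at 9 days, ago1-11 against Ler (1) at 21 days, dcl1-9 against Ler (2), and ago1-10 at 35 days against Ler (2). Points are model estimates and bars 95% intervals. AT2G44120 (-7.20) and AT2G44140 (-2.94) in ago1-10 stand apart from every other value, which lie between -0.94 and 0.37.

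Other genes of autophagy were hardly represented. Of 42 listed genes 3 have a probe set, ATG1C (a kinase that starts autophagosome formation), VPS38 (a subunit of the lipid kinase complex) and SH3P2 (a membrane-binding protein of autophagosomes). Of these, 0 of 3 were called in ago1-11 at 9 or 21 days, in dcl1-9, or in ago1-10 at 35 days against Ler (2). The shares of all probe sets tested that were called there were 4.28%, 2.40%, 0.81% and 16.6%, so 0 of 3 says little about these genes. In ago1-10 at 35 days against Ler (2) they differed by -0.51 (ATG1C), -0.11 (VPS38) and 0.42 (SH3P2). As a description, they ran from -0.83 to -0.38 in ago1-10 against Ler at 9 days. Against Ler (1) at 21 days they ran from -1.51 to 0.17 in ago1-10. ATG1C was under 12 on every array of these mutant groups, of Ler (2) and of Ler at 9 days, so its values are differences near background and a lower level there could hardly have been seen. Of 20 genes of carbon starvation and senescence 2 have a probe set, WRKY53 and WRKY6, both transcription factors of leaf senescence. WRKY6 was lower in ago1-10 at 35 days than in Ler (2), with a difference of -1.12 (adjusted p = 0.024), and WRKY53 differed by 1.29 (0.14 to 2.44; adjusted p = 0.12). In that comparison 16.6% of probe sets tested were called and 10.7% were called lower. In the other ago1-10 comparisons, given as a description, WRKY6 differed by -0.64 (-1.35 to 0.08) at 9 days and by 0.37 (-0.39 to 1.14) against Ler (1) at 21 days. WRKY53 was 1.46 (0.31 to 2.61) at 9 days and 1.99 (0.76 to 3.22) at 21 days. It averaged 18.5 at 9 days and 28.0 at 21 days in ago1-10, against 7.25 in Ler and 6.87 in Ler (1), and 12.0 at 35 days against 4.83 in Ler (2), so its wild-type values are near background.

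Across the 11 group means, the pair's closest match among 2653 other named probe sets was each other. The Pearson correlation of AT2G44120 with AT2G44140 was 0.974. The next were AT2G32880 (0.933) and AT2G30600 (0.922) for AT2G44120, and AT2G30600 (0.956) and AT2G32880 (0.946) for AT2G44140. The AT2G30600 values come from different probe sets of that gene. For ATG8E the closest were AT2G04690 (0.907), EXGT-A3 (0.903), a cell wall xyloglucan enzyme, and AT2G20920 (0.897), and for ATG8F they were AT2G41790 (0.914), AT4G17900 (0.883) and AT5G58720 (0.877). For ATG8B the closest was AT2G25450 (0.927), for ATG8C AT4G37440 (0.944) and for ATG8D AT2G29500 (0.880). No ATG8 gene was among the 3 closest of another ATG8 gene. Group means share arrays and scaling, and for the pair the ago1-10 points at 9 and 21 days carry values that chose it. These correlations are therefore descriptions.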

How the data were processed

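Total RNA of seedlings was labelled as biotin cRNA and measured on 37 arrays of 8247 probe sets. The deposited intensity values are linear signals that the authors computed with MAS5, as the submitters' processing notes state. Neither its version nor its scaling target is given in the sources used here. In the deposited table a point separates digit groups, so the 7913 cells with exactly 3 decimals (491 probe sets) were multiplied by 1000. No column belongs to another series.

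Array medians differed by 1.42 on the log2 scale, and each array was scaled to a median of 19.1. Probe sets above 12 (40th percentile) on at least 3 arrays were tested, and log2 was taken after adding 1.1 (10th percentile). A single limma fit (3.58.1, R 4.3.3; lmFit, contrasts.fit and eBayes, trend on) covered the 37 arrays, with group means as its only terms. A call is a Benjamini-Hochberg adjusted p under 0.05, and intervals are 95% and not adjusted. The fit was also run on simulated normal data with the same spread for every probe set and group, taken from Ler (2). The spread of the real arrays differs between groups, so that run does not show how the fit performs on them. Tables used Python 3.11.15 with pandas 2.3.3 and numpy 2.4.6. The number of arrays limits the precision.

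The series text speaks of biological replicates without saying how they were grown, so p-values reflect the spread between these arrays, which may in part be technical. The members, gene lists and comparisons were chosen with earlier results of these data known. Named outside the members were up to 3 genes of highest correlation with each, up to 4 per list and the nearest tested neighbours. Also named, after their values were seen, were ATG8A, RPL7B, AT2G44060, AT2G44230 and 1 probe set without a gene. The platform annotation gives 1 gene for 3794 probe sets, several for 70 and none for 4383, and 3784 symbols were matched through the TAIR10.1 gene table, which also gave gene order. A list of ribosomal protein genes could not be used, since 0 of 67 genes so named have a probe set. Alternatives were the reading of the point, quantile and trimmed-mean scaling (2% from each end), pseudocounts of 1 and 16, no filter, only the groups compared, the other wild types, strain code, age by title, a replicate block and each array left out. Setting aside near-background values at 12 for the bounds, counting the highest array per group, and age by title for the 35-day comparisons were added after the data were seen.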

Additional observations from a re-analysis of the deposited data

Results flagged for a closer look

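In the 28 checks of a group of 4 arrays for 1 member, 1 array stood apart. ATG8F read 334 on the fourth ago1-11 array at 9 days and 141 to 149 on the other 3, so that the gap to the nearest array was 0.956 of the whole range. That array is the only one of its group with strain code MR57, and the other 3 carry MR51, MR53 and MR54. Such a check flags about 1 in 20 groups by chance. The same array was also the highest of its group for ATG8C (53.5 against 22.3 to 30.3) and for 4 of the 6 ATG8 genes in all. Without it the difference of ATG8F between ago1-11 and Ler at 9 days was -0.60 in place of -0.30, and 0 of the 7 members were called.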

How the results depend on the processing

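The calls of AT2G44120 and AT2G44140 in ago1-10 at 35 days held under every alternative run except 1: with only the groups compared, AT2G44140 against ago1-11 was not called, which left 1 of the 7 members called. Ages taken from the array names, added for the 35-day comparisons after the data were seen, gave 3 members called against Ler (2), ATG8E being the third, and 2 against ago1-11, with 828 and 253 of all probe sets called, and 1814 at 21 days (1247 by the age labels). Elsewhere 0 of the 7 members were called under every alternative except 2, where ATG8B made it 1: Col as the wild type of ago1-11 at 9 days, and a pseudocount of 16 for Ler against Col at 9 days. No value changed its sign among called results. With a pseudocount of 16 the descriptive differences of ago1-10 were -4.84 (9 days) and -4.41 (21 days) for AT2G44120 and -1.69 and -1.61 for AT2G44140, and with Col as wild type ATG8B was -0.83 at 9 days and -0.31 at 21 days. The smallest signals limit the pair, since neither the size of its differences nor the order of the ago1-10 groups can be read below 12.

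The number of all probe sets called moved more than the members did, and the cause was not tested. With only the groups compared it was 80 for ago1-11 at 9 days (259 in the model of all arrays), 59 for ago1-11 at 21 days (145), 266 for dcl1-9 (49), 652 for ago1-10 at 35 days against Ler (2) (1005), 7 against ago1-11 (200), 158 for Ler (1) against Col (411), 71 for Ler (2) against Ler (1) (112), 122 for Ler at 21 against 9 days (404), 71 for ago1-11 at 21 against 9 days (157) and 690 for ago1-10 at 21 days (1247). With another wild type it was 693 (Col) for ago1-11 at 9 days, 742 (Col) and 721 (Ler (2)) for ago1-11 at 21 days, 283 (Ler (1)) for dcl1-9 and 1494 (Col) for ago1-10 at 9 days (960). With the point read as a decimal point it was 170 for ago1-11 at 9 days and 120 for ago1-10 at 35 days against ago1-11. For the difference between the dcl1-9 and ago1-11 effects it was 23 with a pseudocount of 16, 19 with quantile normalization and 21 with trimmed-mean scaling (12). Trimmed-mean scaling moved the median over all probe sets by over 0.1 in 4 comparisons, to 0.07 from -0.05 for ago1-11 at 9 days, to 0.08 from -0.05 for ago1-10 at 35 days against Ler (2), to 0.13 from -0.04 for Ler (1) against Col and to 0.13 from -0.05 for Ler at 21 against 9 days, and the split into higher and lower calls there became 189 and 117 (118 and 141), 486 and 488 (355 and 650), 211 and 181 (138 and 273) and 268 and 156 (146 and 258).

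With the replicate block the count was 97 for dcl1-9 (49) and 107 for Ler against Col at 9 days (633), over the arrays that share a number or letter. Deviations of same-numbered arrays correlated by 0.079, 0.087 and 0.175 between dcl1-9 and Ler (2). The highest correlations with an array of another number were 0.032, -0.033 and -0.053, so the same number was the closest each time. All these correlations were weak. The numbers were not taken to pair samples, but the check cannot decide whether they do. The members called stayed at 0 in both.

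Leaving out each array in turn gave counts of 82 to 481 for ago1-11 at 9 days, 55 to 257 at 21 days, 18 to 54 for dcl1-9, 494 to 1286 and 68 to 403 for ago1-10 at 35 days against Ler (2) and against ago1-11, 338 to 789 for Ler against Col at 9 days, 236 to 421 at 21 days, 20 to 200 for Ler (2) against Ler (1), 95 to 592, 68 to 138 and 84 to 152 for 21 against 9 days in Ler, Col and ago1-11, 5 to 16 for the difference of effects, and 536 to 884 and 753 to 1393 for ago1-10 at 9 and 21 days. The members called were the same number under each omission, 2 in both comparisons of ago1-10 at 35 days and 0 in the other tested ones.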

Other observations

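In 5 of the 11 groups 1 array was the highest of its group for at least 5 of the 6 ATG8 genes (ATG8A included), while in the other 6 groups no array was highest for more than 4. This was picked out after the values were seen and was not tested. In Col at 21 days the first array was highest for 6 of 6, with a median ratio of 2.16 to the mean of the other arrays, beside 1.00 over all probe sets tested, of which 35.0% were highest on it. The first Ler (1) array was highest for 6 of 6 (ratio 1.64, beside 1.05; 39.1% of all) and so was the first Ler (2) array (ratio 1.47, beside 1.00; 33.5% of all). The first ago1-11 array at 21 days was highest for 5 of 6 (ratio 1.79, beside 0.975; 33.8% of all), and the second Col array at 9 days for 5 of 6 (ratio 1.32, beside 1.07; 44.9% of all). Quantile normalization gave the same numbers of genes for these 5 arrays. In Col at 21 days ATG8E read 810 on that array against 332 and 227 on the others, ATG8F 432 against 210 and 137, and ATG8D 104 against 63.8 and 39.2. AT2G44120 read 493 there, against 472 and 347. The first Ler (2) array is named Ler while the other 3 of its group are named WT, and the labels give no growth, harvest or treatment detail by which these arrays differ.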
